A study of Mus musculus with 6 samples.

Results

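The 10 receptors described here are G protein-coupled receptors through which leukocytes sense chemoattractants, chosen by name from the 36976 genes of the deposited expression table. They comprised the lipid receptors *Ltb4r1* and *Ptafr*, the fatty acid receptor *Gpr84*, the peptide and complement receptors *Fpr1*, *Fpr2* and *C5ar1*, and the chemokine receptors *Cxcr2*, *Ccr1*, *Ccr2* and *Cxcr4*. Their transcripts were measured by RNA-Seq in long-term chronic myelogenous leukaemia (LT-CML) stem cells from the bone marrow of C57BL/6 mice. 3 libraries (replicates 1, 2 and 3) came from *Gdpd3*+/+ and 3 (replicates 5, 6 and 7) from *Gdpd3*-/- tet-CML-affected mice. *Gdpd3* encodes a lysophospholipase D, and the disrupted allele carried a deletion of 5 base pairs. All animals of both genotypes carried *SCL-tTA* and *TRE-BCR-ABL1*, so that the *BCR-ABL1* oncogene was expressed from the *SCL* driver once doxycycline was withdrawn, and cells were taken 5 weeks after that induction at an age of 10 to 12 weeks. They had been sorted as CD150+CD48-CD135-LSK cells, LSK meaning lineage-negative, Sca-1-positive and c-Kit-positive. RNA came from 22 male and 12 female *Gdpd3*+/+ mice and from 5 male and 5 female *Gdpd3*-/- mice, and the labels do not tell how the animals were divided among the libraries. Healthy control libraries were not analysed here.

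Chemoattractant receptors couple mainly to Gi proteins, and in neutrophils and monocytes they turn gradients of lipids, formylated peptides, complement fragments and chemokines into directed movement, degranulation and oxidant release. *Cxcr4* has another role in the marrow. It binds Cxcl12 made by niche cells and holds haematopoietic stem cells there, whereas the other receptors of the set are best known from mature myeloid cells.

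The sequence just upstream of the transcription start differed between *Cxcr4* and the granulocyte receptors. RefSeq promoters of the build GRCm38.p6 were found for all 10 receptors. The 250 bases before the start are printed 5′ to 3′ for *Cxcr4*, the retention receptor, and for *Ltb4r1* and *Gpr84*, the granulocyte receptors with the largest expression differences between genotypes. Letters in capitals mark matches on either strand to 3 motifs. One is AGGAAG, the core of sites of the myeloid factor PU.1. Another is the GC box, spelled GGGCGG, and the last is the TATA box, spelled TATAAA.
Cxcr4, chr1:128592300-128592549, minus strand: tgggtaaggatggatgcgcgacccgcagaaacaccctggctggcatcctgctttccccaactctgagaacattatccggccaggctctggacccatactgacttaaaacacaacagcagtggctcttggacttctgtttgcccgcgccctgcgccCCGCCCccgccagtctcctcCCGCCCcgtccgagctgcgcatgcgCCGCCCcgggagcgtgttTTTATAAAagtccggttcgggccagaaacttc
Ltb4r1, chr14:55765712-55765961, plus strand: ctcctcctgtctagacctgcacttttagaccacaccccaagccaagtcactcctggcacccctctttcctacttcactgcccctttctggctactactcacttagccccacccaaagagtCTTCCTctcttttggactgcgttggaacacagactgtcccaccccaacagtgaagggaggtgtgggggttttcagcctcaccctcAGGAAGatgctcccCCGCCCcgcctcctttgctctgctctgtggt
Gpr84, chr15:103310439-103310688, minus strand: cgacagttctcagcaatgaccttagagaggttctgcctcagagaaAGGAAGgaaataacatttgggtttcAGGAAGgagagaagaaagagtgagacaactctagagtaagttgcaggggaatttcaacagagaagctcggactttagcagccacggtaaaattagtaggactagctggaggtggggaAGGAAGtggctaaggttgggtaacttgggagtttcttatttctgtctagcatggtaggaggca

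The *Cxcr4* window held 19 CpG sites at a GC content of 61.2%, and 80.3% of the 32851 promoter windows of the same length held fewer. The other 9 receptors held 0 to 5 CpG sites at a GC content of 37.2% to 56.8%, beside a median of 6 sites and 52.4% over all windows. The *Cxcr4* window contained 3 GC boxes and 2 overlapping TATA matches on opposite strands, but no AGGAAG. *Ltb4r1* and *Ptafr* had 1 GC box each, and *Fpr1* and *Fpr2* had 1 TATA match each. GC boxes were present in 32.7% of all windows and TATA matches in 12.4%. AGGAAG occurred 2 times upstream of *Ltb4r1*, 3 times upstream of *Gpr84*, 3 times upstream of *C5ar1* and 2 times upstream of *Cxcr2*, and 29.5% of all windows held it. It was not in the windows of *Fpr1*, *Fpr2*, *Ccr1*, *Ccr2* or *Ptafr*. The C/EBP half-site pair TTNNGCAA, held by 9.56% of all windows, was in none of the 10. These matches describe the letters of a window and not the binding of a factor.

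Levels are given as FPKM, fragments normalised to transcript length and to the reads mapped, a scale per length on which different genes can be ordered. Depth on genes, inferred from the FPKM table, was 4.98 to 6.28 gigabases in the *Gdpd3*+/+ libraries and 2.13 to 3.64 in the *Gdpd3*-/- libraries. *Gdpd3* itself read 7.30, 3.29 and 2.95 FPKM in the *Gdpd3*+/+ libraries against 0.110, 0.0129 and 0.681 in the *Gdpd3*-/- libraries. The stem cell markers *Ly6a* (Sca-1) and *Kit* were above 100 FPKM in every library, and *Slamf1*, which encodes the CD150 of the gate, was at 5.41 to 13.2 FPKM. Transcripts of the markers the gate excluded were present too, *Cd48* at 39.8 to 92.2 FPKM and *Flt3* (CD135) at 9.80 to 46.5. The neutrophil granule genes *S100a8*, *S100a9* and *Ngp* were also present, with the sum of the 15 granule markers at 31526 to 34800 FPKM in *Gdpd3*+/+ and 8967 to 15214 in *Gdpd3*-/- libraries. The 12 skeletal muscle markers, led by *Acta1*, *Tnnc2* and *Tnnt3*, summed to 969 to 1431 FPKM in *Gdpd3*+/+ libraries but to 12474, 17872 and 2376 in *Gdpd3*-/- replicates 5, 6 and 7, so replicates 5 and 6 stand apart, and the log2 difference of each receptor is also given without them.

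A single receptor of the set, *Ltb4r1*, passed the test across all genes, and the groups overlapped for 7 of the 10. Limma, fitted to log2(FPKM + 0.1) with adjustment over the 24689 genes tested by the Benjamini-Hochberg method, called *Ltb4r1* lower and none of the 10 higher at an adjusted p under 0.05. Of all genes tested, 0.616% were called lower and 1.09% higher (152 and 270 genes). With TMM scaling between libraries that split was 244 lower and 118 higher, and *Ltb4r1* was again the single receptor called. Without *Gdpd3*-/- replicates 5 and 6, replicate 7 alone stood for *Gdpd3*-/-, and no spread within that genotype was measured. For that comparison only log2 differences are given below. At an unadjusted p under 0.05, 4 of the 10 differed, all downwards, where 5.76% of all genes were lower at that level. All 10 receptors passed the filter on low values. In 3 of them, *Ltb4r1*, *Gpr84* and *Ccr1*, the highest *Gdpd3*-/- value was under the lowest *Gdpd3*+/+ value, a pattern that 8.27% of all genes showed. No receptor lay above in all libraries, a pattern that 23.5% of all genes showed. The log2 fold change was negative for 7 receptors and positive for 3, with a median of -0.54 beside a median of 0.24 over all genes. TMM scaling and quantile normalization moved the median over all genes to 0.04 and -0.01, so changes are to be read relative to it. In sorted bulk RNA, fewer cells that carry a receptor and less receptor RNA per cell cannot be told apart.

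**Figure D1:**
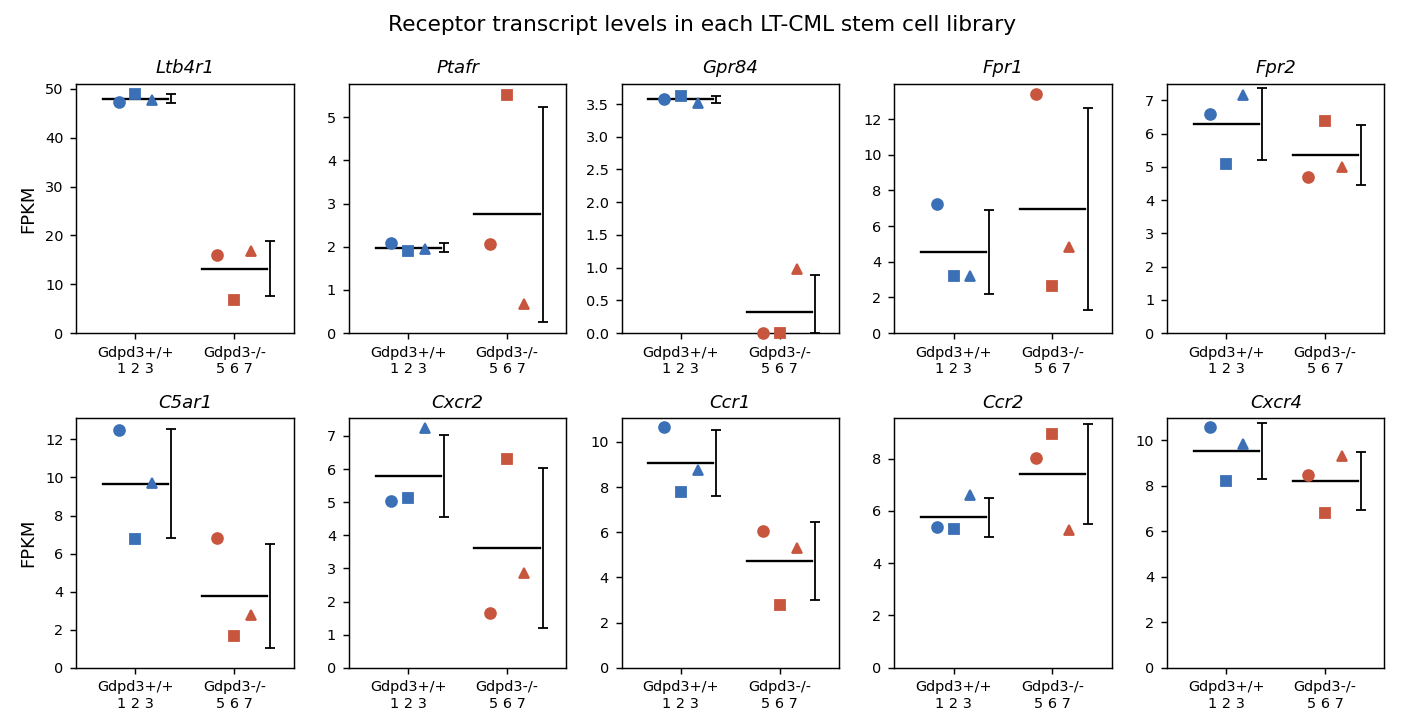
FPKM of each receptor (vertical axis, from 0, scaled per panel) in the 3 *Gdpd3*+/+ libraries (blue, replicates 1, 2 and 3) and the 3 *Gdpd3*-/- libraries (red, replicates 5, 6 and 7). Symbols are libraries, horizontal lines are means and bars are the SD, with the lower end of the *Gpr84* bar stopped at 0. *Ltb4r1*, *Gpr84* and *Ccr1* show separate groups, and the groups of the other 7 receptors overlap.

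Among the lipid receptors, *Ltb4r1* had the highest mean level of the set in both genotypes and the clearest difference. It encodes BLT1, the high-affinity receptor for leukotriene B4, and lies at chr14:56384799-56387331 on the plus strand in the mm9 coordinates of the table. *Gdpd3*+/+ replicates 1, 2 and 3 held 47.3, 49.0 and 47.8 FPKM, and *Gdpd3*-/- replicates 5, 6 and 7 held 16.1, 6.81 and 16.8. The *Gdpd3*+/+ values were tightly grouped, and all *Gdpd3*-/- values were far below them. Replicate 6 was lowest, and there *Ccr2* was higher than *Ltb4r1* at 8.94 FPKM. The mean of 48.0 ± 0.863 FPKM (SD, n = 3) compared with 13.2 ± 5.56, or 27.5% of it. On the log2 scale the difference was -1.96 with a standard error of 0.337, a 95% interval of -2.77 to -1.16 and a limma adjusted p of 0.0487. The exact permutation test over libraries gave p = 0.1, the smallest that 3 libraries against 3 allow. The call was narrow, because the adjusted p was 0.239, 0.225 and 0.244 without *Gdpd3*+/+ replicates 1, 2 and 3 and 0.0746 without *Gdpd3*-/- replicate 5. Without *Gdpd3*-/- replicates 5 and 6, a comparison added after the data were seen that leaves replicate 7 alone, the log2 difference was -1.51.

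*Ptafr*, the receptor for platelet-activating factor (chr4:132119982-132138598, plus strand, mm9), was at the bottom of the *Gdpd3*+/+ order. Its FPKM was 2.09, 1.89 and 1.94 in *Gdpd3*+/+ and 2.06, 5.51 and 0.678 in *Gdpd3*-/- libraries. The *Gdpd3*-/- values surrounded the *Gdpd3*+/+ values, with replicate 6 high and replicate 7 low. The log2 difference was 0.03, with a wide 95% interval of -1.59 to 1.65 and a limma adjusted p of 0.982. It took the opposite sign with TMM scaling (-0.18), with quantile normalization (-0.31) and without replicate 6 (-0.68). The log2 difference was -1.41 when replicates 5 and 6 were both left out, which leaves only replicate 7. No direction can be given for this gene.

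*Gpr84*, a receptor for medium-chain fatty acids on myeloid cells (chr15:103138667-103140869, minus strand, mm9), had the largest fold change of the set from a low level. The level was 3.58, 3.63 and 3.52 FPKM in the *Gdpd3*+/+ libraries, and it was 0, 0 and 0.975 in *Gdpd3*-/- replicates 5, 6 and 7. The groups did not overlap, and the transcript was listed at 0 in 2 of 3 *Gdpd3*-/- libraries. At the *Gdpd3*+/+ mean level about 78.8 and 135 reads would have fallen on the gene in replicates 5 and 6. How many independent molecules stand behind such a level is unknown, and the reason for the 2 values of 0 was not tested. Replicate 7 held about 25.3 reads where 92.8 would have been found at that level. The fitted log2 difference was -4.06 with a standard error of 0.942 and a limma adjusted p of 0.0821, so the test was missed despite the size. The fitted value depended on the constant added before the logarithm and was -6.28 with 0.01 and -1.87 with 1. Without replicate 7 the limma adjusted p was 0.00421, at a log2 difference of -5.20. Without replicates 5 and 6 the log2 difference was -1.77.

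The peptide and complement receptors did not behave alike. *Fpr1* (chr17:18013435-18020904, minus strand, mm9), the high-affinity receptor for bacterial formyl peptides, read 7.26, 3.20 and 3.19 FPKM in *Gdpd3*+/+ and 13.4, 2.66 and 4.84 in *Gdpd3*-/- libraries. Replicates 1 and 5 were high and the groups overlapped. Its log2 difference was 0.40 (95% interval -1.07 to 1.87, limma adjusted p = 0.704), and it was -0.22 without *Gdpd3*-/- replicate 5 and 0.20 without replicates 5 and 6.

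*Fpr2*, which responds to formyl peptides and to annexin A1 (chr17:18024788-18030916, plus strand, mm9), read 6.58, 5.09 and 7.18 FPKM in *Gdpd3*+/+ and 4.70, 6.39 and 4.99 in *Gdpd3*-/- libraries. These groups overlapped, with a log2 difference of -0.22 (95% interval -0.72 to 0.27, limma adjusted p = 0.528). It was -0.37 to -0.12 with 1 library left out and -0.31 without replicates 5 and 6. Its exons shared 48 of 1296 bases, 3.70%, with *Fpr3* on the same strand, so a small portion of its reads could belong to either gene.

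*C5ar1* (chr7:16832092-16844889, minus strand, mm9), the receptor for the complement fragment C5a, was second to *Ltb4r1* in *Gdpd3*+/+ libraries. Its FPKM was 12.5, 6.78 and 9.70 there and 6.84, 1.67 and 2.77 in *Gdpd3*-/- libraries. The groups touched, because *Gdpd3*-/- replicate 5 lay just above *Gdpd3*+/+ replicate 2. The mean was 9.66 ± 2.87 against 3.76 ± 2.72 FPKM (SD, n = 3 each), and the log2 difference of -1.53 (standard error 0.509) had an unadjusted p of 0.0209 and an adjusted p of 0.149 in limma. Without replicates 5 and 6 it was -1.72.

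Of the inflammatory chemokine receptors, *Ccr1* was separated between genotypes and *Cxcr2* and *Ccr2* were not. *Ccr1* (chr9:123876959-123883525, minus strand, mm9), which binds Ccl3, Ccl5 and related ligands, read 10.6, 7.77 and 8.76 FPKM in *Gdpd3*+/+ and 6.06, 2.76 and 5.33 in *Gdpd3*-/- libraries. Each *Gdpd3*-/- value was below each *Gdpd3*+/+ value, and the means were 9.06 ± 1.46 and 4.72 ± 1.73 (SD, n = 3 each). The log2 difference was -0.99 (standard error 0.314, limma unadjusted p = 0.0172 and adjusted p = 0.135). It was -0.65 without *Gdpd3*-/- replicate 6 and -0.74 without replicates 5 and 6.

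*Cxcr2* (chr1:74200563-74207812, plus strand, mm9), the neutrophil receptor for Cxcl1 and Cxcl2 that drives release from the marrow, read 5.04, 5.13 and 7.23 FPKM in *Gdpd3*+/+ and 1.65, 6.32 and 2.86 in *Gdpd3*-/- libraries. Replicates 5 and 7 were low, whereas replicate 6 lay within the *Gdpd3*+/+ range. The log2 difference was -0.86 (95% interval -1.98 to 0.26, limma adjusted p = 0.328). It depended on single libraries, at -0.42 without replicate 5 and -1.35 without replicate 6 (limma adjusted p = 0.496 and 0.0803), and was -0.98 without both.

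*Ccr2* (chr9:124016689-124028296, plus strand, mm9), the receptor for Ccl2 that brings monocytes out of the marrow, read 5.38, 5.29 and 6.62 FPKM in *Gdpd3*+/+ and 8.04, 8.94 and 5.28 in *Gdpd3*-/- libraries. Replicates 5 and 6, the libraries richest in muscle transcripts, were the high ones, and replicate 7 was level with *Gdpd3*+/+ replicate 2, the lowest of its group. The log2 difference was 0.33 (95% interval -0.23 to 0.89, limma adjusted p = 0.441). It was 0.18 to 0.56 with 1 library left out and -0.12 without replicates 5 and 6.

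*Cxcr4* (chr1:130484776-130488870, minus strand, mm9) showed little difference when read against 0. *Gdpd3*+/+ replicates 1, 2 and 3 held 10.6, 8.19 and 9.81 FPKM, and *Gdpd3*-/- replicates 5, 6 and 7 held 8.45, 6.82 and 9.31. The groups overlapped, and the mean of 8.19 ± 1.26 FPKM in *Gdpd3*-/- was 86.0% of the 9.53 ± 1.23 in *Gdpd3*+/+ libraries (SD, n = 3 each). The log2 difference was -0.22 with a 95% interval of -0.64 to 0.20 and a limma adjusted p of 0.498, so the interval spans a modest fall and a small rise. It was -0.32 to -0.09 with 1 library left out, smallest without *Gdpd3*-/- replicate 6, and -0.026 without replicates 5 and 6. It was -0.43 with TMM scaling (limma unadjusted p = 0.0517 and adjusted p = 0.254). With quantile normalization it was -0.33 (limma adjusted p = 0.348). The median of all genes also lay lower under both. In the main fit that median, 0.24, lay above the 95% interval of *Cxcr4*.

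**Figure D2:**
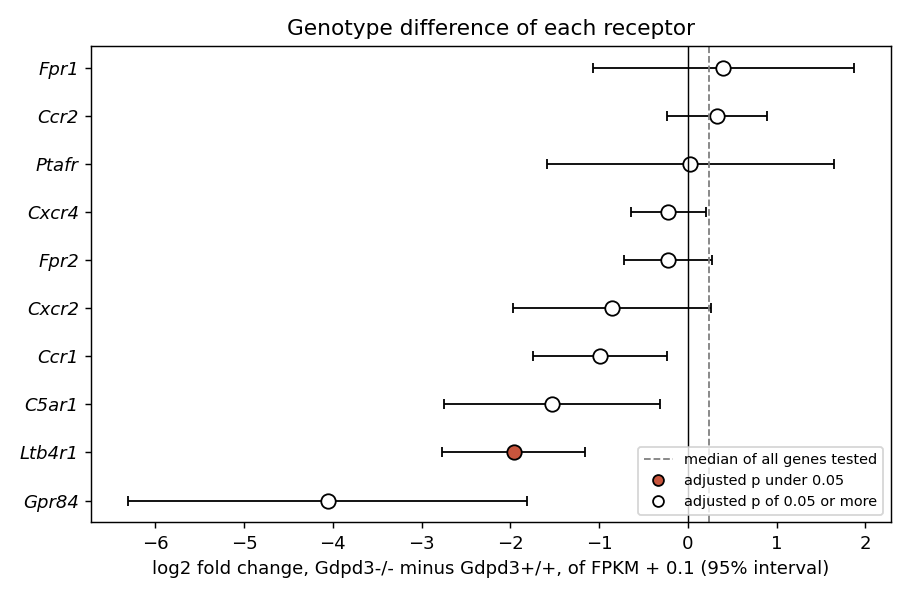
Log2 fold change of each receptor (horizontal axis, *Gdpd3*-/- minus *Gdpd3*+/+, of FPKM + 0.1) from limma with its 95% interval, in order of size. The filled point, *Ltb4r1* at -1.96, had an adjusted p under 0.05, and the dashed line is the median of all genes tested, 0.24. The intervals of *Gpr84*, *Ltb4r1*, *C5ar1* and *Ccr1* lie below 0.

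The order of the mean levels was not the same in the 2 genotypes. In *Gdpd3*+/+ libraries *Ltb4r1* stood apart from all others. *C5ar1*, *Cxcr4* and *Ccr1* followed at 9.66, 9.53 and 9.06 FPKM with overlapping libraries. *Fpr2*, *Cxcr2*, *Ccr2*, *Fpr1* and *Gpr84* came next, each overlapping its neighbour in the order, and *Ptafr* at 1.97 FPKM was separate from *Gpr84* above it. In *Gdpd3*-/- libraries the order was *Ltb4r1*, *Cxcr4*, *Ccr2*, *Fpr1*, *Fpr2*, *Ccr1*, *C5ar1*, *Cxcr2*, *Ptafr* and *Gpr84*, and the libraries of each pair of neighbours overlapped.

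Summed over the 10 receptors, the level was 104 ± 7.63 FPKM in *Gdpd3*+/+ and 56.3 ± 9.93 in *Gdpd3*-/- libraries (SD, n = 3 each), and the sums did not overlap. *Ltb4r1* made up 46.3% of the sum in *Gdpd3*+/+ libraries and 23.1% in *Gdpd3*-/- libraries. The share of *Cxcr4* was 9.12% ± 0.525 against 14.7% ± 2.40, higher in all 3 *Gdpd3*-/- libraries. The shares of *Ccr2*, at 5.54% and 13.5%, and of *Fpr2*, at 6.01% and 9.87%, were likewise higher in each *Gdpd3*-/- library. Since *Ltb4r1* is a large part of the sum, the shares of the others rise when it falls.

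*Cxcr4* was next compared with each of the other 9 receptors within a library, as a log2 ratio of FPKM + 0.1. Apart from the constant, this ratio does not depend on how the libraries were scaled against each other. The ratio was higher in every *Gdpd3*-/- library than in every *Gdpd3*+/+ library for 4 of the 9 receptors, *Ltb4r1*, *Gpr84*, *C5ar1* and *Ccr1*. For the other 5 the groups overlapped, and no ratio was lower in every *Gdpd3*-/- library. Each of the 4 separate ratios had a two-sided exact permutation p of 0.1, the smallest possible, and 0.225 after Benjamini-Hochberg adjustment over the 9 ratios, so no ratio could pass the threshold in this design.

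Against *Ltb4r1* the log2 ratio was -2.15, -2.57 and -2.27 in the *Gdpd3*+/+ libraries, while *Gdpd3*-/- replicates 5, 6 and 7 had -0.92, 0.00077 and -0.84. *Cxcr4* was thus well below *Ltb4r1* in each *Gdpd3*+/+ library and level with it in *Gdpd3*-/- replicate 6. The mean ratio differed by 1.74, a 3.35-fold shift towards *Cxcr4*. Against *C5ar1* the mean log2 ratio was 0.02 ± 0.253 in *Gdpd3*+/+ and 1.33 ± 0.898 in *Gdpd3*-/- libraries (SD, n = 3 each), a 2.48-fold shift in the same direction. Against *Ccr1* it was 0.08 ± 0.0844 and 0.85 ± 0.403, a 1.71-fold shift. These receptors had levels close to that of *Cxcr4* in *Gdpd3*+/+ libraries and lower ones in *Gdpd3*-/- libraries. Against *Gpr84* the shift was 3.84 on the log2 scale, a value set in part by the constant added to the 2 values listed at 0.

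The ratio did not separate the genotypes for the remaining receptors. It differed by 0.64 for *Cxcr2* (exact permutation p = 0.4), or by 0.17 without *Gdpd3*-/- replicate 5 and 1.26 without replicate 6, and by 0.0040 for *Fpr2* (exact permutation p = 1). The sign was opposite for *Fpr1* (-0.62, exact permutation p = 0.5), *Ccr2* (-0.55, exact permutation p = 0.3) and *Ptafr* (-0.25, exact permutation p = 0.7). Relative to *Cxcr4*, therefore, the other 9 receptors did not move as a block.

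**Figure D3:**
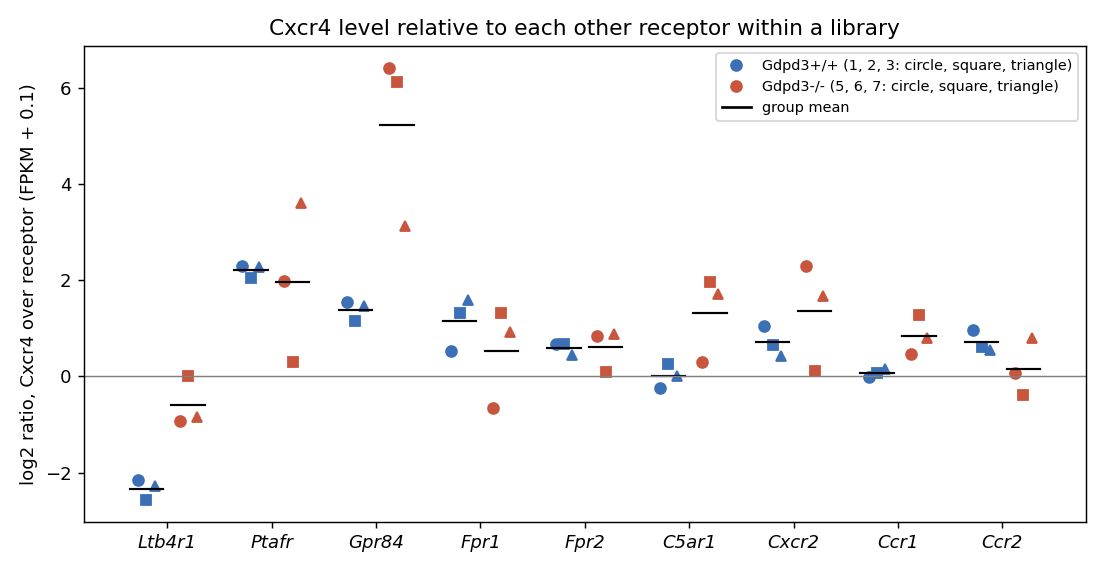
Log2 ratio of *Cxcr4* over each other receptor (vertical axis, FPKM + 0.1) in each *Gdpd3*+/+ library (blue) and *Gdpd3*-/- library (red), with lines at the group means. The red points lie above all blue points for *Ltb4r1*, *Gpr84*, *C5ar1* and *Ccr1*, and overlap them for the other 5 receptors.

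The granule genes of neutrophils moved with the lower receptors. Of the 15 markers, 13 lay lower in every *Gdpd3*-/- library, a pattern that 8.27% of all genes showed. Limma called 6 lower (*Elane*, *Prtn3*, *Ltf*, *Ngp*, *Camp* and *Cebpe*), where 0.616% of all genes were called lower. The median log2 fold change of the 15 was -1.58, and none was called higher. The eosinophil, basophil and mast cell markers, of which *Prg2*, *Ear1* and *Ear2* were the most abundant, had a median of -1.06 with *Cpa3* called higher. Among 14 monocyte and macrophage markers *Ly6c2* was called lower and *Ms4a6c* higher, and the most abundant others, *Lyz2* and *Ctss*, overlapped between genotypes. The 14 had a median of 0.47 beside 0.24 over all genes. In every *Gdpd3*-/- library 6 of them lay higher and 2 lower, where 23.5% and 8.27% of all genes did. No long-term stem cell marker of 15 was called, and their median was 0.19. Of these 15, 7 had an unadjusted p under 0.05 in limma, a larger share than the 22.2% of all genes. In every *Gdpd3*-/- library 4 of the 15 lay higher and 2 lower, beside the same 23.5% and 8.27% of all genes. The part of granulocyte transcripts in the receptor differences was not tested, and neither was that of the muscle transcripts.

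The wider chemoattractant families showed no called receptor. None of the 16 other chemokine receptors tested was called in either direction, with 2 at an unadjusted p under 0.05 in limma and a median log2 fold change of 0.30. *Ccrl2*, which presents chemerin, was at 8.26 ± 0.918 and 12.0 ± 1.57 FPKM (SD, n = 3 each, limma adjusted p = 0.118). *Ccr3*, the eotaxin receptor, was at 4.18 ± 0.821 and 1.38 ± 1.10 (limma adjusted p = 0.224). *Ackr1*, a chemokine scavenger, and *Ccr7*, which directs cells to lymph nodes, overlapped between genotypes. *Ackr3*, which also binds Cxcl12 and was singled out after its values were seen, was below the filter.

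Of 12 other chemoattractant receptors tested none was called, with 3 at an unadjusted p under 0.05 in limma and a median of -0.26. The thromboxane receptor *Tbxa2r* was at 10.5 ± 1.06 and 17.3 ± 1.47 FPKM (SD, n = 3 each, limma adjusted p = 0.0567), opposite in sign to *Ltb4r1*. The fatty acid receptor *Ffar2* was at 6.49 ± 0.419 and 4.89 ± 0.562 (limma adjusted p = 0.214), lower in each *Gdpd3*-/- library, as *Gpr84* was. *Cysltr2*, a receptor for cysteinyl leukotrienes, overlapped between genotypes, and *Hcar2*, the niacin receptor, was higher in each *Gdpd3*-/- library (limma adjusted p = 0.131). *Ltb4r2*, the low-affinity partner of *Ltb4r1*, was at 0.505 and 0.565 FPKM and overlapped, a gene singled out after its values were seen. *Fpr-rs3*, *Fpr-rs4*, *Fpr-rs6* and *Fpr-rs7* were listed at 0 in all 6 libraries.

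Among the enzymes that make lipid ligands, *Lta4h*, which forms leukotriene B4, the ligand of *Ltb4r1*, was called lower. Its FPKM was 270, 292 and 284 in *Gdpd3*+/+ and 116, 114 and 146 in *Gdpd3*-/- libraries, a log2 difference of -1.18 with a limma adjusted p of 0.0196. It was the only gene called of the 11 in this group, whose median was -0.12. An unadjusted p under 0.05 in limma was found for 6 of them, where 22.2% of all genes had one. *Alox5ap*, which presents arachidonic acid to 5-lipoxygenase, was at 198 ± 5.48 and 249 ± 50.8 FPKM (SD, n = 3 each, limma adjusted p = 0.279). *Pla2g4a*, the cytosolic phospholipase that frees arachidonic acid, and *Pafah1b2*, a subunit of an enzyme that degrades platelet-activating factor, overlapped between genotypes.

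Of 17 ligands tested, *Anxa1* and *C3* were called lower and *Ccl4* higher, and the median was 0.01. *Anxa1* encodes annexin A1, a ligand of *Fpr2*, and was at 253 ± 11.0 FPKM in *Gdpd3*+/+ and 124 ± 21.0 in *Gdpd3*-/- libraries (SD, n = 3 each, limma adjusted p = 0.0287). *C3*, the precursor of the complement fragment C3a, was at 38.3 ± 2.02 and 9.47 ± 3.62 (limma adjusted p = 0.0275). *Ccl4*, an inflammatory chemokine, was at 38.1 ± 6.67 and 131 ± 22.6, a log2 difference of 1.77 (limma adjusted p = 0.0197). *Mif*, a ligand reported for Cxcr4 and Cxcr2, was the most abundant at 390 ± 35.4 and 541 ± 31.8 FPKM (limma adjusted p = 0.0808), while *Pf4* and *Ccl6* overlapped. *Ccl3*, a ligand of *Ccr1*, was at 34.7 ± 8.54 and 70.1 ± 21.8 (limma adjusted p = 0.106), so it lay higher where its receptor lay lower. *Cxcl12*, the ligand of *Cxcr4*, was at only 1.02 ± 0.480 and 0.782 ± 0.280 FPKM in these sorted cells. The last 2 genes were singled out after their values were seen.

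The most abundant signalling genes downstream of the receptors were not called. *Gnai2*, the main Gi subunit of leukocytes, was at 272 ± 8.62 and 297 ± 5.88 FPKM (SD, n = 3 each, limma adjusted p = 0.414), and the GTPases *Cdc42*, *Rac2* and *Rhoa* overlapped between genotypes. The median log2 fold change of the 35 genes was -0.05, and none was called higher.

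Other surface proteins of granulocytes were mixed. *Cd177*, a neutrophil surface glycoprotein, was at 81.0 ± 8.62 and 26.0 ± 9.33 FPKM (SD, n = 3 each, limma adjusted p = 0.0340) and *Itgb2*, the beta-2 integrin chain, at 60.8 ± 2.76 and 36.1 ± 2.15 (limma adjusted p = 0.0275). Both were called lower, and none of the 20 was called higher, with a median of -0.54. *Selplg*, which encodes PSGL-1, was higher in each *Gdpd3*-/- library with a limma adjusted p of 0.0585, and *Fcgr3*, a low-affinity IgG receptor, was lower in each with 0.0880.

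The genes that act with *Cxcr4* in holding stem cells in the marrow had a median log2 fold change of -0.18 over the 10, *Cxcr4* included. *Vcam1*, the partner of the integrin VLA-4, was called lower, at 18.1 ± 3.11 and 2.84 ± 1.77 FPKM (SD, n = 3 each, limma adjusted p = 0.0487, log2 difference -2.82). *Kit* and *Cd44* overlapped between genotypes and *Itgb1* was lower in each *Gdpd3*-/- library, and none of these was called. Among the sort markers, *Cd48* was at 41.9 ± 2.58 and 65.9 ± 22.8 FPKM (SD, n = 3 each, limma adjusted p = 0.188). *Flt3* was at 10.5 ± 0.617 and 40.4 ± 5.31 FPKM and was called higher (limma adjusted p = 0.00562).

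**Figure D4:**
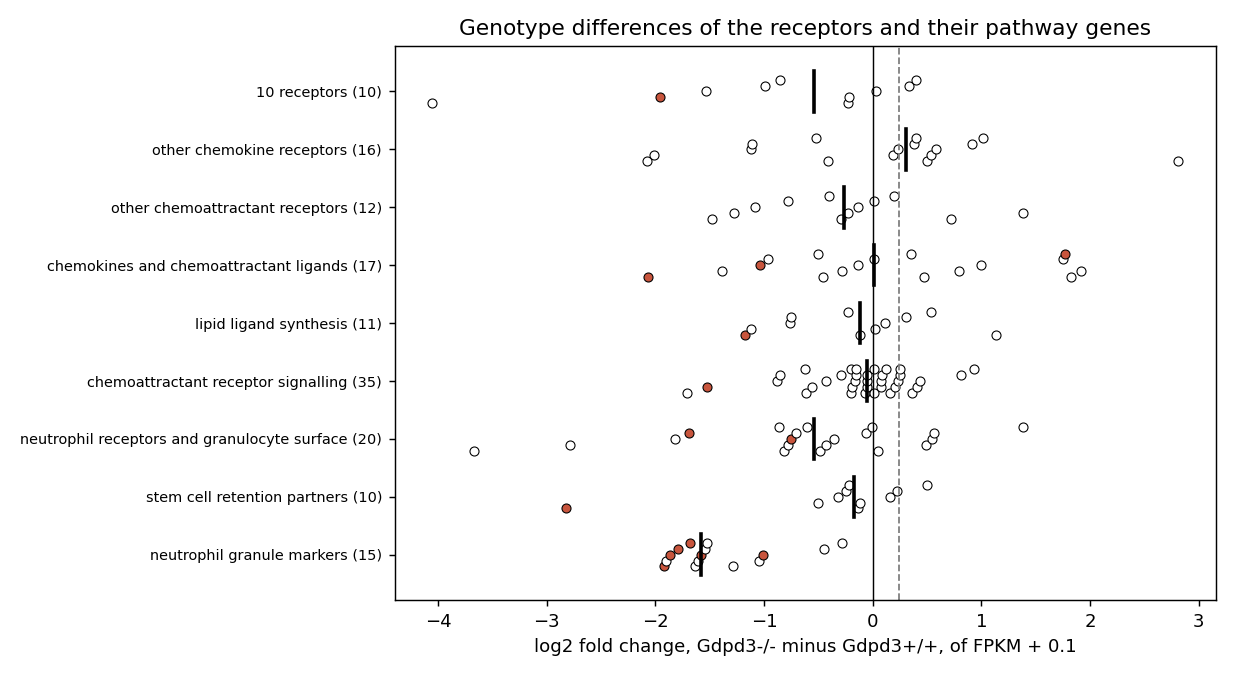
Log2 fold change (horizontal axis, *Gdpd3*-/- minus *Gdpd3*+/+, of FPKM + 0.1) of each tested gene of the 10 receptors and of 8 lists, with the number of genes in brackets. Filled points had an adjusted p under 0.05 in limma, black bars are list medians and the dashed line is the median of all genes tested, 0.24. The receptors have a median of -0.54, the other chemokine receptors 0.30 and the neutrophil granule markers -1.58.

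For *Cxcr4* and for *Ltb4r1*, the genes whose profile over the 6 libraries was most like that of the receptor were listed. Likeness was measured over the 9640 genes with a mean of at least 5 FPKM, as the root mean square difference between log2 profiles centred on their own mean, which includes the genotype difference. The closest to *Cxcr4* were *Kpna1* (0.0439), *Nfatc3* (0.0510), *Lypla1* (0.0670), *Tmem138* (0.0691) and *Sec24d* (0.0724). The closest to *Ltb4r1* were *Gca* (0.105), *Fcrla* (0.160), *Cldn15* (0.188), *Itgb2l* (0.215) and *Hvcn1* (0.234). *Gca* encodes grancalcin, a calcium-binding protein of neutrophils, and *Hvcn1* the voltage-gated proton channel of phagocytes and B cells. The functions of *Fcrla*, *Cldn15* and *Itgb2l* are not given here, so the list is not assigned to a cell type. Because the profiles hold the genotype difference, receptors that differ in it were bound to have different nearest genes. These 6 libraries share depth and genotype differences, so the likeness is a description.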

How the data were processed

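RNA-Seq libraries were made with a SMART-Seq v4 kit and Nextera XT from LT-CML stem cells and sequenced as paired-end reads of 150 bases. Per the submitters' processing notes, Trimmomatic, Trim Galore and cutadapt 1.16, STAR 2.6.1a with mm9, featureCounts 1.6.1 and DESeq2 were used. The authors deposited FPKM values for 36976 genes in each of the 6 libraries, and all columns of samples were used. A second table with the authors' own DESeq2 comparison (mean level, fold change, p-values) was not used. Groups were taken from the genotype labels. The study describes the 3 samples of each genotype as biologically independent, and the labels do not say which mice went into each library.

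In each library FPKM times gene length was a whole multiple of a common step within 0.02, taken to be covered bases, from which depth and approximate reads (bases divided by 150) were inferred. Counts of reads were not recovered, and how many independent molecules stand behind a low value is unknown. Genes with a mean of at least 0.05 FPKM were fitted as log2(FPKM + 0.1) with limma 3.58.1 (R 4.3.3) with an intensity trend and genotype as the only term, with Benjamini-Hochberg adjustment over 24689 genes. Fold changes on this scale understate those of low genes. For single receptors and *Cxcr4* ratios the genotypes were compared over libraries with exact permutation tests, two-sided (SciPy 1.17.1, 20 assignments). The limma fit with its main settings was tested on simulated data, and the other steps were not.

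The 10 receptors and the 17 gene lists were chosen with earlier results of these data known. Named genes were all 10 receptors, *Gdpd3*, the called genes and the 4 most abundant genes of each pathway list, of each marker list that bears on the receptors the 3 most abundant genes and any listed at 0 throughout, and the 5 most similar profiles for *Cxcr4* and *Ltb4r1*. *Slamf1* was named after its values were seen. Some genes of the lists are not reported here. Lists are described by counts and medians, with no test. As alternatives, the constant added was 0.01 or 1, the filter was dropped or raised to a mean of 1 FPKM, TMM scaling (30% of M and 5% of A values trimmed) or quantile normalization was applied, the trend was dropped, array weights were used, and each library was left out in turn. Leaving out *Gdpd3*-/- replicates 5 and 6 together was added after seeing the data. Positions of genes are mm9 as in the table, and promoters are RefSeq on GRCm38.p6, so the coordinates of the 2 builds must not be combined. Protein sequences were not used here.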

Additional observations from a re-analysis of the deposited data

How the results depend on the processing

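No paired analysis was possible because the genotypes share no replicate number, and no count model was run because the table holds no counts. The causes of the changes below were not tested. *Ltb4r1* missed the limma threshold with 1 added to FPKM (-1.88), without the filter (-1.96) and without the trend (-1.96), which left 0 of the 10 receptors called in each case, and it was -2.19 to -1.54 with 1 library left out. *Gpr84* was -5.20 to -3.49 with 1 library left out and was called without *Gdpd3*-/- replicate 7 (-5.20). It was -1.77 without replicates 5 and 6, where replicate 7 alone stood for *Gdpd3*-/-. Leaving out 1 library gave 0 to 2 receptors called, and leaving out replicates 5 and 6 together gave 3.

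The sign turned for *Ptafr* with TMM scaling (-0.18), quantile normalization (-0.31), array weights (-0.29) and without replicates 5 and 6 (-1.41), and for *Ccr2* without replicates 5 and 6 (-0.12). With 1 library left out, *Fpr1* and *Ptafr* also turned (-0.22 to 0.92 and -0.68 to 0.75). The *Cxcr4* ratio to *Fpr2* turned with 1 added (-0.0050) and was -0.14 to 0.26 with 1 library left out, and that to *Ptafr* was -1.07 to 0.58.

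Over all genes, 422 were called (270 higher, 152 lower). With 1 added, 225 were called (124 higher, 101 lower), without the trend 153 (79 higher, 74 lower), with array weights 240 (124 higher), and with a mean of at least 1 FPKM 673 (471 higher). The split was 118 higher to 244 lower under TMM and 119 to 206 under quantile normalization, with medians over all genes of 0.04 and -0.01 in place of 0.24. Leaving out replicates 5 and 6 gave 2294 (1896 higher, 398 lower). With 1 library left out, 0 to 3413 genes were called (0 to 2364 higher, 0 to 1049 lower), fewest without *Gdpd3*+/+ replicate 1, where 3356 had an unadjusted p under 0.05 in limma, and most without *Gdpd3*-/- replicate 7.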

Other observations

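Lineages other than the granulocytes were read from marker lists chosen, like the receptors, with earlier results of these data known. *Xbp1* and *Mzb1*, which serve antibody secretion in plasma cells, were called lower by limma among 10 B and plasma cell markers, at 265 ± 16.5 and 135 ± 22.8 FPKM (SD, n = 3 each) for *Xbp1*, while *Jchain*, the most abundant of them, was at 2199 ± 312 and 1163 ± 458. None of 8 T cell markers (led by *Lck*, *Tcf7* and *Trac*), 9 erythroid markers (led by *Hba-a1*, *Hbb-bs* and *Car1*) or 7 megakaryocyte markers tested (led by *Pf4*, *Itga2b* and *Gp9*) was called in either direction, with 2, 1 and 2 at an unadjusted p under 0.05 in limma. *Gp6*, of the megakaryocyte markers, was listed at 0 in all libraries. *Cpa3*, a mast cell protease, was at 46.9 ± 21.4 FPKM in *Gdpd3*+/+ and 159 ± 10.6 in *Gdpd3*-/- libraries and was called higher.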
